A study of Mus musculus with 4 samples.

Results

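The genes described here are 7 T cell activation and costimulation genes of the mouse lung: Cd44, Cd69, Icos, Cd28, Cd40lg, Cd5 and Cd6. They were chosen by gene symbol from the feature tables of 4 single-cell RNA libraries, 7 of 31053 genes, and all 7 were found once in each table. The study asked whether Ift20, a protein of intraflagellar transport that T cells use although they build no cilium, is needed in CD4+ T cells for papain-induced airway inflammation. Each library held live CD45.2+ lung cells of C57BL/6 mice, whose age the labels do not give. WT mice carried Ift20 f/f without Cre, and KO mice carried Ift20 f/f with CD4 cre, so that every group had the floxed allele. The papain groups received 25 µg of papain, a plant cysteine protease, into the nose on 3 consecutive days and again on day 14, and the control groups received DPBS, a phosphate buffer. Lungs were taken on day 15. There was 1 library for each of the 4 combinations, named by treatment and genotype (DPBS WT, for example), and how many mice each one came from is not given in the sources used here. The CD4 cre transgene is active in thymocytes that carry both CD4 and CD8, so that CD8 T cells recombine as well.

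A naive T cell needs a signal through its antigen receptor and a second, costimulatory signal. CD28 gives the second signal when it meets CD80 or CD86 on an antigen-presenting cell. ICOS, a relative of CD28, appears mostly after activation, binds ICOSL and is known for its part in helper T cell cytokines and in regulatory T cells. CD40 ligand is shown by CD4+ T cells to CD40 on B cells and dendritic cells. CD69 is an early activation antigen that also holds cells in tissue by acting on the sphingosine phosphate receptor S1PR1. CD44 is a hyaluronan receptor that memory T cells, and most myeloid cells, carry at high levels. CD5 and CD6 are related scavenger-receptor proteins that sit near the antigen receptor and tune its signal. All values below are transcripts, not surface protein.

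Several members lie next to each other in the genome. On the GRCm38 build (GENCODE M21), Cd28 lies on chromosome 1 from 60716800 to 60773359 and Icos from 60977927 to 61000320, both on the plus strand, with Ctla4 between them. The gap from Cd28 to Ctla4 is 113640 bp and that from Ctla4 to Icos is 62094 bp. Cd5 (chromosome 19, 10717116 to 10739002) and Cd6 (chromosome 19, 10789341 to 10830058) are on the minus strand with 50338 bp between them. Cd44 is on chromosome 2 (102811141 to 102901665, minus strand, 19 annotated exons), Cd69 on chromosome 6 (129267325 to 129275436, minus strand) and Cd40lg on chromosome X (57212143 to 57224042, plus strand).

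The libraries held 5863 to 8552 barcodes and 53854420 to 75675956 UMIs (unique molecular identifiers, each counting 1 captured transcript), and 5433 to 7587 cells were kept in each. Levels are UMIs summed over the cells of a class, given as CPM, the usual per-million scaling, of all UMIs of that class, with exact 95% Poisson intervals. With 1 library per group no difference between groups could be tested, and every interval covers the counting of UMIs only, not the spread between mice. In such sums a smaller share of high cells and less RNA per cell cannot be told apart. Cell classes were named from marker genes, none of them a member, and the members took no part in the clustering. However, 1 rule, on which cells of a mixed memory sub-cluster to call CD4, was set after their low Cd5 and Cd6 were seen. The CD4 T-like class held 1189, 825, 1333 and 892 cells, given here and below in the order WT then KO with DPBS and WT then KO with papain, with median depths of 5387, 5927, 6031 and 6310.5 UMIs per cell. Cd3e, a chain of the antigen receptor complex, stood at 554, 572, 507 and 496 CPM there. Cd8a and Cd8b1 were at 0 UMIs because CD4 T-like cells were called without them, whereas the B cell markers summed to 22.4 to 105 CPM.

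Ift20 itself was read first. In CD4 T-like cells it stood at 60.2 CPM in WT and 21.0 in KO with DPBS, and at 60.0 and 19.1 with papain. The log2 KO/WT ratio was -1.52 (-1.83 to -1.21) with DPBS and -1.65 (-1.94 to -1.37) with papain. It was -1.74 and -1.66 in CD8 T-like cells, and in NK-like cells, which the transgene should spare, -0.12 (-0.67 to 0.41) and -0.24 (-0.85 to 0.39). The reads come from the 3′ end of transcripts, outside the floxed exons, so that they measure the transcript that remained and not the deletion itself.

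All 7 members were detected in CD4 T-like cells of every library. With DPBS, Cd44 was at 49.9 CPM (45.0 to 55.1) in WT and 40.1 (34.9 to 46.0) in KO, and with papain at 118 (111 to 125) and 58.8 (53.1 to 64.9). Papain WT was the high library, and its interval overlapped none of the other 3. Icos stood at 126 CPM (119 to 135), 174 (163 to 186), 284 (273 to 295) and 176 (166 to 186) in the same order. DPBS WT was the low library for Icos, Papain WT was the high one, and both KO libraries lay between them within counting error of each other.

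Marker transcripts of myeloid cells, which carry much Cd44, were present at low levels in the same cells. The 7 alveolar macrophage markers summed to 82.7, 89.7, 111 and 53.6 CPM and the 6 neutrophil markers to 15.4, 9.26, 34.8 and 25.4 CPM, both highest in Papain WT as Cd44 was, with at most 1 marker of a list at 0 UMIs in a library. At the Cd44-to-marker ratio of alveolar macrophage-like and neutrophil-like cells, that much marker RNA would bring 7.37, 8.03, 4.36 and 4.79 CPM of Cd44. The 5 classical monocyte markers summed to 32.2, 21.0, 68.4 and 61.5 CPM. Without Ccr2, which memory T cells also express, they summed to 12.9 to 27.9 CPM, highest in Papain KO. At the Cd44-to-marker ratio of monocyte-like cells, the markers without Ccr2 would bring 9.22, 11.4, 7.07 and 26.4 CPM of Cd44. This estimate too was largest in Papain KO, and the part of these transcripts in the Cd44 level was not tested. NK markers summed to 21.6 to 72.8 CPM and were lowest in Papain WT.

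Cd69 was at 177, 177, 232 and 214 CPM, so that both papain libraries lay above both DPBS libraries. Cd28, the constitutive receptor, was the flattest of the 7 at 358, 370, 395 and 363 CPM. Cd40lg ranged from 31.5 to 37.4 CPM, with intervals that all overlapped. For Cd5 the values were 180, 137, 174 and 154 CPM and for Cd6 they were 156, 115, 148 and 124 CPM. Both genes had their highest level in DPBS WT and their lowest in DPBS KO.

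**Figure D1:**
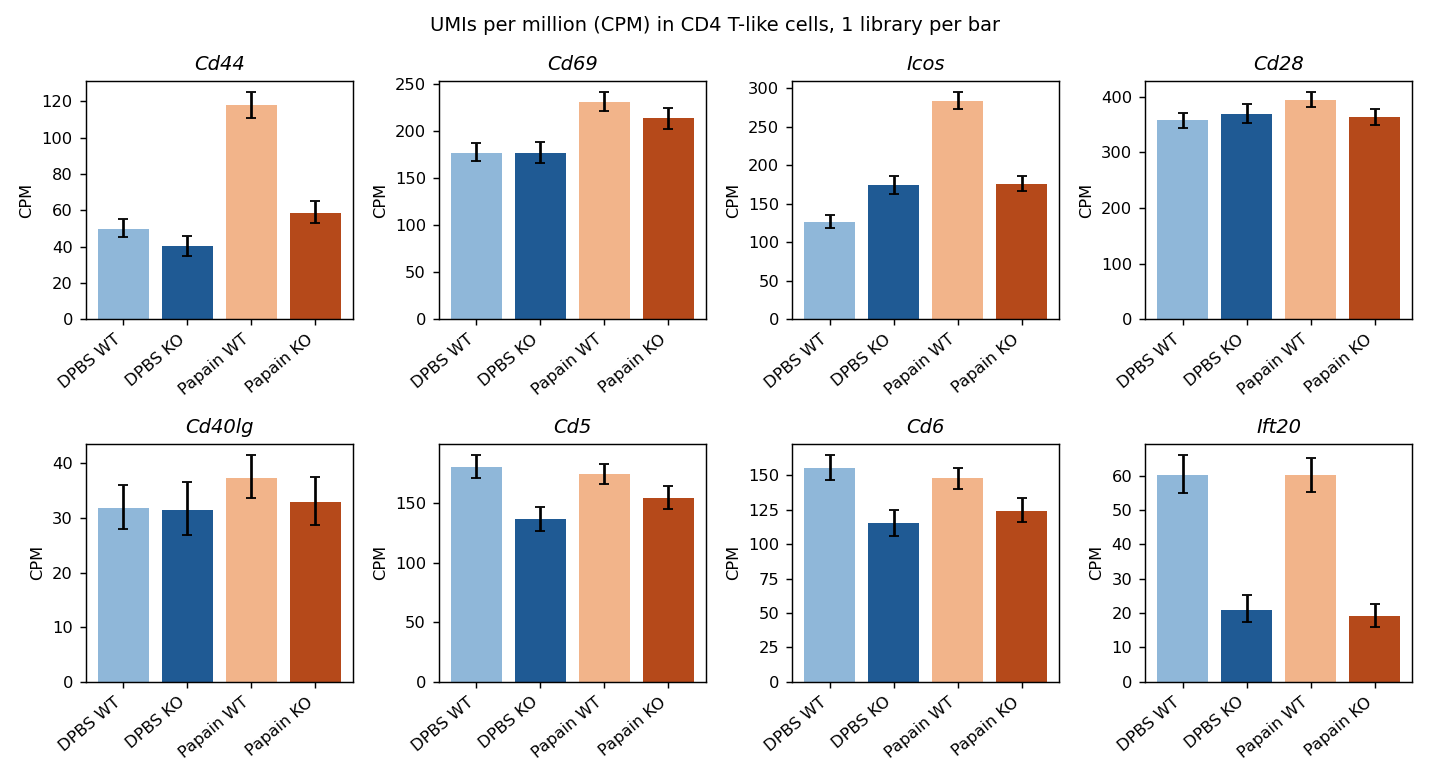
Levels (CPM, y axis from 0) of the 7 members and of Ift20 in CD4 T-like cells, 1 bar for each library, with exact 95% Poisson intervals that cover counting error only. Cd44 and Icos stand highest in Papain WT (118 and 284 CPM), Icos is lowest in DPBS WT (126 CPM), and Ift20 is low in both KO libraries (21.0 and 19.1 CPM).

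The comparison of genotypes after papain asks which of these genes differ when Ift20 is lost in T cells of the inflamed lung. Cd44 was 2.01-fold lower in KO than in WT, a log2 ratio of -1.0 (-1.17 to -0.84). Icos was 1.61-fold lower, with -0.69 (-0.79 to -0.59). These were 2 of 7 members past 1.5-fold, where 8.5% of 9511 genes with at least 50 UMIs were lower by that much, and no member was higher, against 1.86% of genes. The median log2 ratio was -0.19 over the members and -0.10 over all genes. The remaining 5 members were between -0.25 and -0.12. Whether Icos passed 1.5-fold rested on 1 choice made after the data were seen, which cells of a mixed memory sub-cluster, whose markers tied between CD4 memory and gamma-delta T cells, to call CD4: with all cells that lacked both Cd4 and Cd8 UMIs included, its log2 ratio was -0.58 and 1 member was past that fold. Of those cells 34.5% had a UMI of Trdc, the gamma-delta receptor constant gene, against 1.96% of the cells with a Cd4 UMI.

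Without papain the pattern of the genotypes was another one. Icos was higher in DPBS KO than in DPBS WT, with a log2 ratio of 0.46 (0.33 to 0.59). Cd5 and Cd6 were lower, with -0.40 (-0.53 to -0.27) and -0.43 (-0.58 to -0.29), and Cd44 was at -0.31 (-0.56 to -0.07). That Cd44 ratio rested on the dividing cells and was -0.005 without them. Cd28, Cd40lg and Cd69 had intervals that included 0. None of the 7 was past 1.5-fold, against 3.31% of 8905 genes higher and 8.52% lower. The Icos ratio therefore had opposite signs in the 2 treatments, and the papain log2 ratio minus the DPBS one was -1.15 (-1.31 to -0.99). For Cd44 that difference was -0.69 (-0.99 to -0.40), for Cd28 -0.17 (-0.28 to -0.06) and for Cd5 0.23 (0.06 to 0.40).

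The comparison of papain with DPBS used the same libraries. In WT, Cd44 was 2.36-fold higher after papain (log2 ratio 1.24, 1.07 to 1.41) and Icos was 2.24-fold higher (1.17, 1.06 to 1.27). Cd69 followed at 0.38 (0.29 to 0.48), while Cd28, Cd40lg, Cd5 and Cd6 were between -0.07 and 0.23. Thus 2 of 7 members were higher by 1.5-fold or more, where 10.6% of 9560 genes were, and none was lower, against 2.25%. In KO, Cd44 was at 0.55 (0.30 to 0.80), Cd69 at 0.27 (0.15 to 0.39) and Icos at 0.02 (-0.11 to 0.14). No KO member was past 1.5-fold in either direction, against 7.09% of 8772 genes higher and 1.44% lower. The sum of genes that respond to tissue handling, such as Fos, Jun and heat shock genes, was also higher in the papain libraries. It was 4216, 4926, 6076 and 6562 CPM in CD4 T-like cells. Not every gene of that sum was higher in both. Jun was at 633, 665, 624 and 872 CPM, Fos at 344, 404, 393 and 542 and Junb at 1007, 1950, 1796 and 1820. Cd69 is known to respond to handling as well, and the part of handling in its level was not tested.

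The members were next read inside the subsets of CD4 T-like cells. Naive-like cells made up 81.5%, 87.9%, 66.9% and 81.1% of CD4 T-like cells in the same order. Memory-like cells made up 4.71%, 3.52%, 13.5% and 5.27%, and regulatory T-like cells 4.88%, 5.09%, 9.98% and 6.05%. Dividing cells made up 1.21% to 3.00% of the cells but, being large, gave 4.81% to 15.7% of the UMIs.

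Cd44 separated memory from naive subsets. Across the 4 libraries it ranged from 21.4 to 30.0 CPM in naive CD4 T-like cells and from 13.1 to 19.1 CPM in naive CD8 T-like cells. In memory CD4 T-like cells it was 104, 149, 236 and 189 CPM. Memory CD8 T-like cells, at 64.8 to 91.7 CPM, lay above both naive subsets and below memory CD4 T-like cells. The ranges of subsets above memory CD8 T-like cells overlapped with their neighbours in the order, and gaps appeared between memory CD8 and naive CD4 T-like cells and between naive CD4 and naive CD8 T-like cells.

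Icos was highest in regulatory T-like cells, the Foxp3+ suppressive lineage, at 440, 498, 723 and 615 CPM. Memory CD4 T-like cells had 199, 403, 427 and 406 CPM. Naive CD4 T-like cells had 84.0, 130, 106 and 83.5 CPM and naive CD8 T-like cells 59.4 to 83.4 CPM. Neighbours in this order overlapped down to memory CD8 T-like cells, and gamma-delta T-like cells stood below them at 24.9 to 44.0 CPM.

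Cd28 varied less between subsets. It ran from 539 to 647 CPM in memory CD4 T-like cells, 352 to 415 in regulatory T-like cells, 322 to 345 in naive CD4 T-like cells and 194 to 240 in naive CD8 T-like cells. Cd40lg was the member most tied to the CD4 lineage. It stood at 27.9 to 35.8 CPM in naive and 34.0 to 82.7 CPM in memory CD4 T-like cells, and at 1.84 to 3.75 CPM in CD8 T-like cells. Within the CD4 lineage regulatory T-like cells were low, at 7.51 to 20.6 CPM from 3 to 14 UMIs. Gamma-delta T-like cells had no Cd40lg UMI, which, at a floor of 3 counts in each library, allows a level of up to 12.9 to 18.7 CPM.

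Cd5 and Cd6 had much the same order of subsets. By its median over the libraries Cd5 was highest in regulatory T-like cells, at 410, 295, 316 and 231 CPM, with a range that overlapped those of dividing and memory CD4 T-like cells, and naive CD4 T-like cells had 137, 113, 103 and 118 CPM. Cd6 ranged from 159 to 295 CPM in memory CD4 T-like cells and from 96.3 to 131 CPM in naive ones. Naive CD8 T-like cells had lower levels of both, 63.4 to 70.1 CPM of Cd5 and 77.1 to 87.0 CPM of Cd6.

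Cd69 went its own way. By its median over the libraries it was highest in T-like cells with NK receptors, at 262 to 358 CPM, and the range of naive CD8 T-like cells (198 to 258 CPM) lay within that of memory CD4 T-like cells (174 to 311 CPM). Dividing CD4 and CD8 T-like cells were lowest, at 95.4 to 150 CPM.

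**Figure D2:**
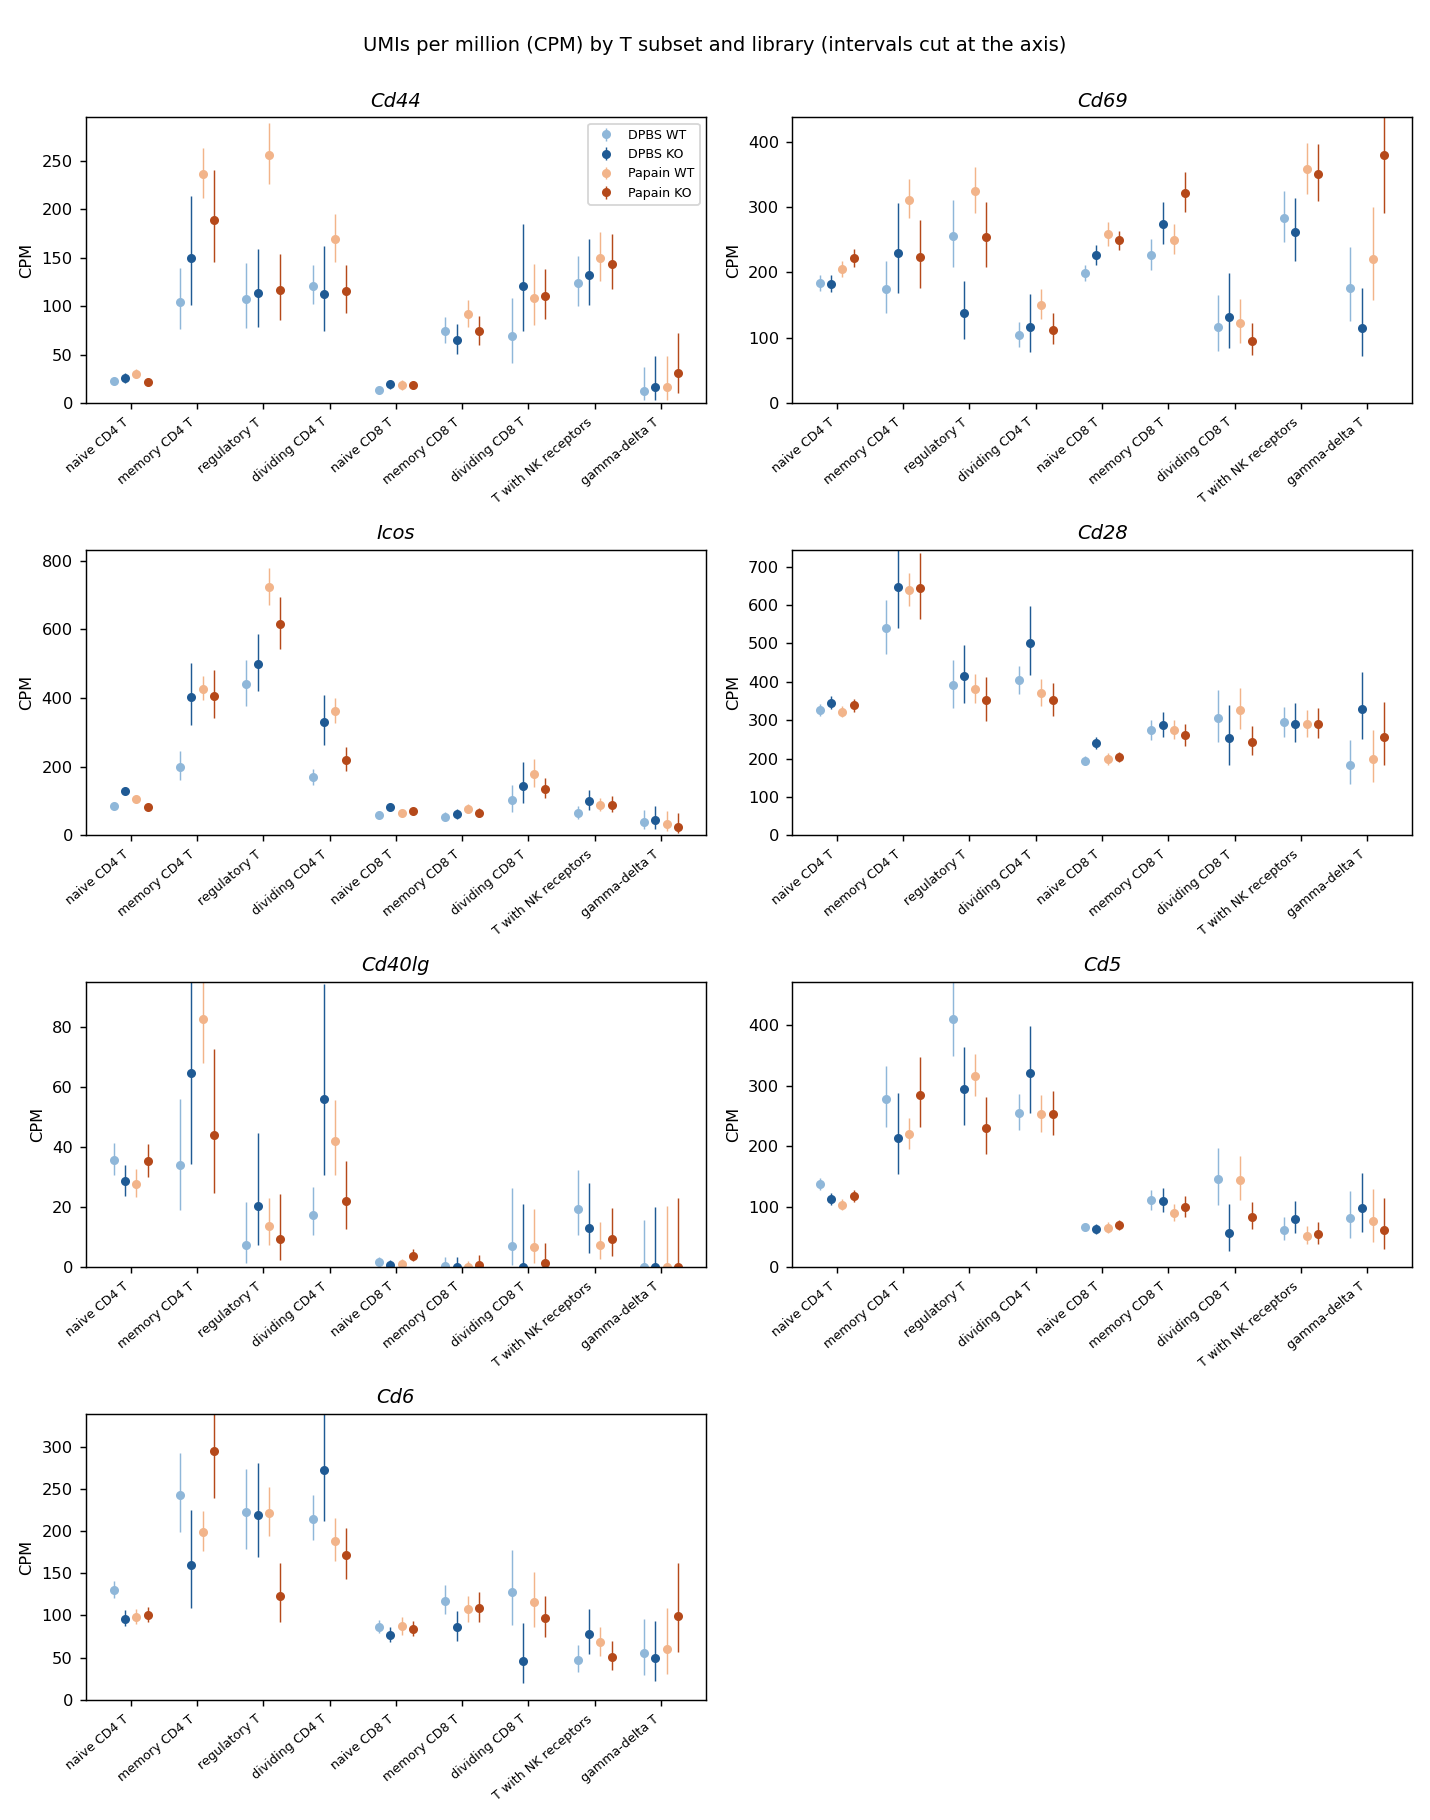
Levels (CPM) of the 7 members in T cell subsets, 1 point for each library, with exact 95% Poisson intervals that cover counting error only. Cd44 and Icos are low in naive subsets and high in memory CD4 and regulatory T-like cells, Icos in memory CD8 T-like cells (54.4 to 76.7 CPM) is no higher than in naive CD8 T-like cells, Cd40lg is near 0 in CD8 subsets, and Cd69 shows no such split.

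The KO/WT differences were then traced through the subsets. For Icos after papain the log2 ratio was -0.34 (-0.54 to -0.16) in naive, -0.23 (-0.44 to -0.03) in regulatory and -0.72 (-0.98 to -0.45) in dividing CD4 T-like cells. In memory CD4 T-like cells it was -0.07 (-0.35 to 0.20). With DPBS it was positive in these 4 subsets, from 0.18 (-0.15 to 0.50) in regulatory to 1.02 (0.56 to 1.47) in memory CD4 T-like cells, and 0.63 (0.45 to 0.81) in naive CD4 T-like cells. The change of sign was thus present inside naive CD4 T-like cells, where papain minus DPBS was -0.97 (-1.23 to -0.71).

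For Cd44 after papain the largest subset difference was in regulatory T-like cells, with 256 CPM in WT and 116 in KO, a log2 ratio of -1.14 (-1.61 to -0.69). Both DPBS libraries, at 108 and 113 CPM, were near the Papain KO value. The summed handling genes in regulatory T-like cells, 5254, 4480, 7203 and 4325 CPM, were also highest in Papain WT, and their part in this difference was not tested. Naive CD4 T-like cells had -0.49 (-0.87 to -0.12), dividing cells -0.55 (-0.93 to -0.18) and memory CD4 T-like cells -0.33 (-0.74 to 0.06). The ratio was thus negative in these 4 subsets, and smaller than over the whole class in all but the regulatory one.

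Cd5 and Cd6 split between subsets. In naive CD4 T-like cells Cd6 was at 131, 96.3, 98.5 and 101 CPM and Cd5 at 137, 113, 103 and 118 CPM, so that DPBS WT stood above the other 3 libraries. In regulatory T-like cells Cd6 was at 223, 220, 222 and 124 CPM. Papain KO was there the low library, with a log2 KO/WT ratio of -0.84 (-1.31 to -0.40), and the Cd5 ratio was -0.46 (-0.80 to -0.12). In memory CD4 T-like cells after papain both were higher in KO, Cd6 by 0.56 (0.22 to 0.90) and Cd5 by 0.37 (0.03 to 0.71) on the log2 scale. Cd40lg in memory CD4 T-like cells after papain was 82.7 CPM (68.2 to 99.3) in WT and 44.2 (24.7 to 72.9) in KO, from 114 and 15 UMIs. Regulatory T-like cells also had less Cd69 in DPBS KO than in DPBS WT, 137 against 255 CPM, a log2 ratio of -0.89 (-1.46 to -0.35).

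**Figure D3:**
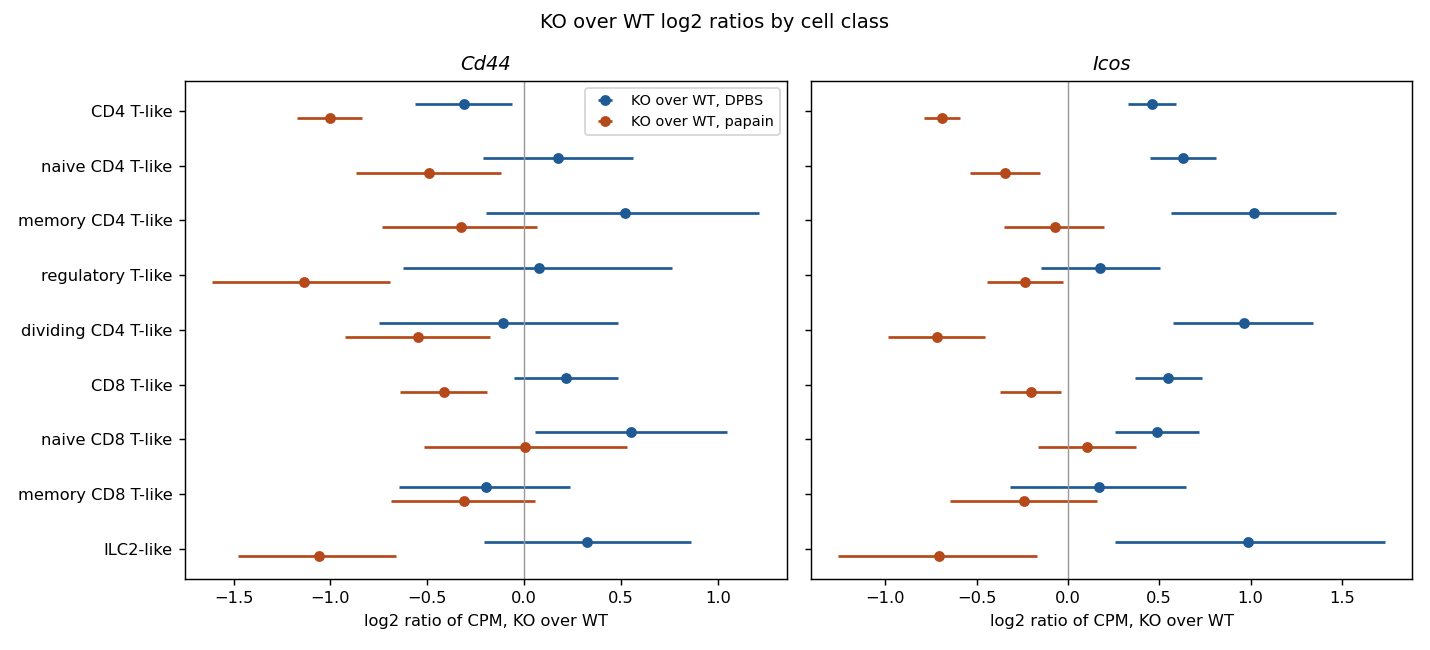
Log2 KO/WT ratios of CPM for Cd44 and Icos by cell class and CD4 T subset, with DPBS and papain shown apart and exact 95% intervals for counting error only. The Icos ratio lies above 0 with DPBS and below 0 with papain in ILC2-like (0.98 and -0.70), CD4 T-like (0.46 and -0.69) and CD8 T-like cells (0.55 and -0.20).

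Several differences over all CD4 T-like cells, though not all, were smaller at equal subset shares. Memory CD4 T-like cells gave 29.2% of the Cd44 UMIs of the class in Papain WT and 16.5% in Papain KO, and regulatory T-like cells 23.3% and 12.6%. In DPBS WT, 34 dividing cells gave 38.1% of the Cd44 UMIs. When every library was given the same subset shares, the Cd44 log2 KO/WT ratio after papain went from -1.0 to -0.57 and that of Icos from -0.69 to -0.34. The papain/DPBS ratio in WT went from 1.24 to 0.70 for Cd44 and from 1.17 to 0.69 for Icos, and in KO from 0.55 to 0.07 and from 0.02 to -0.27. With DPBS, the Icos KO/WT ratio was 0.62 at equal shares, and the Cd44 ratio went from -0.31 to 0.06. At equal shares Cd44 was at 57.9 CPM in Papain KO and 86.0 in Papain WT, and in that comparison neither gene was then past 1.5-fold.

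**Figure D4:**
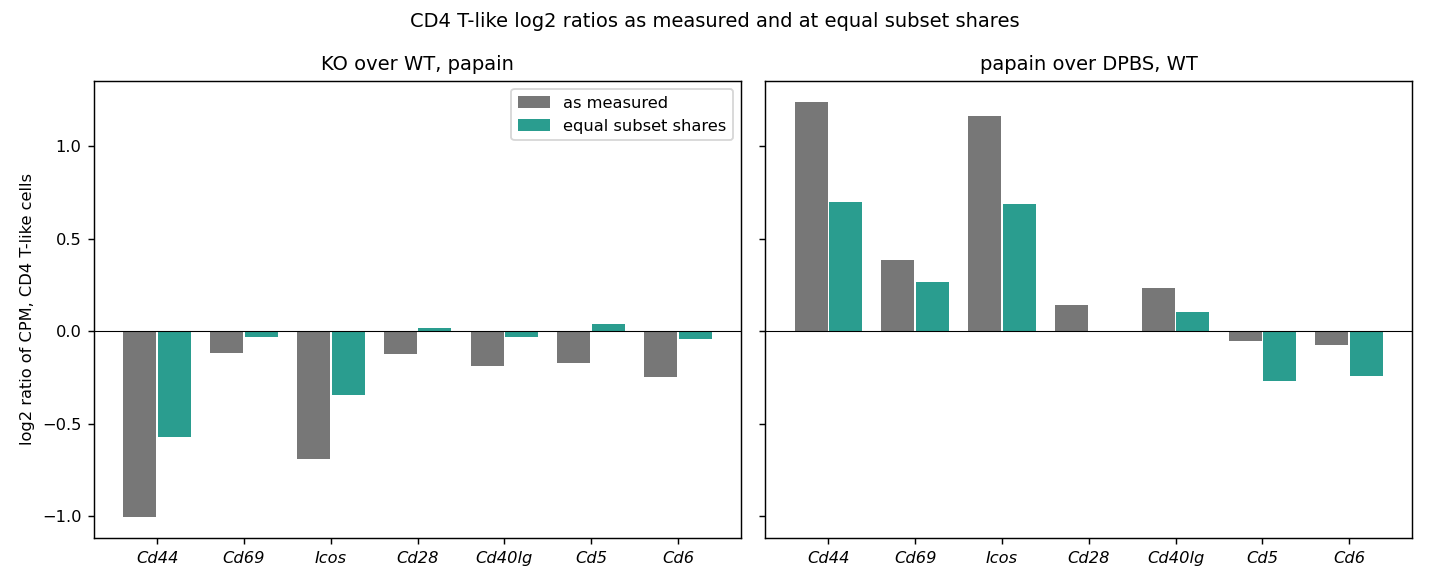
Log2 ratios of CPM in CD4 T-like cells as measured (grey) and after every library was given the same subset shares (green), for KO/WT with papain and for papain/DPBS in WT. The Cd44 and Icos bars keep their direction and shorten, from -1.0 to -0.57 and from -0.69 to -0.34 for KO/WT.

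Papain WT was also the library with the largest share of CD4 T-like cells that had a Cd44 or an Icos UMI. After each cell was thinned to 2000 UMIs, 7.84%, 5.24%, 14.7% and 6.39% of CD4 T-like cells had a Cd44 UMI (17.2%, 16.6%, 33.1% and 20.7% before thinning). For Icos the shares were 17.2%, 22.6%, 28.6% and 19.7% (34.7%, 43.6%, 51.4% and 41.6% before thinning). Thinning left out 3, 5, 7 and 0 cells below that depth. In B-like cells, which should lack Icos, 0.22% to 0.81% of cells had an Icos UMI before thinning and 0.05% to 0.29% after it, at median depths of 3882.5 to 4781 UMIs.

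In the other lineages, CD8 T-like cells had Icos at 62.1, 90.9, 97.2 and 84.4 CPM and Cd28 at 222, 260, 252 and 231 CPM. DPBS WT was the low library for both. Their Cd44 was 33.2, 38.5, 58.8 and 44.1 CPM, highest in Papain WT, and the log2 KO/WT ratio after papain was -0.42 (-0.64 to -0.19). The subset shares of this class differed too. Naive CD8 T-like cells were 406 of 691 cells in Papain WT and 568 of 799 in Papain KO, and memory CD8 T-like cells 179 and 125. The part of these shares in the CD8 T-like ratios was not tested. ILC2-like cells are innate lymphocytes without an antigen receptor, in which the transgene should be silent, and their Ift20 ratios were 0.23 (-0.75 to 1.22) and -0.31 (-1.0 to 0.36). Yet their Icos was 81.4, 161, 155 and 94.9 CPM and their Cd44 182, 228, 322 and 154 CPM. Papain KO was below Papain WT for both, with log2 ratios of -0.70 (-1.26 to -0.17) and -1.06 (-1.48 to -0.66), from 69, 50, 84 and 79 cells. T cell transcripts were also highest in the Papain WT cells of that class, with Cd3e at 12.5, 31.5, 53.7 and 28.7 CPM, 2, 3, 33 and 3 UMIs of Cd28 and 0, 1, 8 and 0 of Cd40lg. When the cells with a Cd3d, Cd3e or Cd3g UMI were left out, a choice made after the data were seen that kept 37, 30, 39 and 47 cells, Cd40lg was at 0 UMIs, and the Papain KO/WT log2 ratios were -1.07 (-1.79 to -0.38) for Icos and -1.60 (-2.28 to -0.96) for Cd44. Cd69 over all ILC2-like cells, those with a Cd3 UMI included, was 326, 630, 357 and 514 CPM, higher in both KO libraries.

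Cd44 was far higher in myeloid classes than in lymphocytes. It was at 1431 to 1634 CPM in alveolar macrophage-like cells, 1466 to 1801 in neutrophil-like cells and 491 to 660 in monocyte-like cells. B-like cells had 59.5, 66.4, 105 and 72.5 CPM, again with the highest level in Papain WT and a log2 KO/WT ratio after papain of -0.53 (-0.67 to -0.40). A lower Cd44 level in Papain KO was therefore also present in B-like and ILC2-like cells. The log2 ratio was -0.51 in mature DC-like, -0.25 in conventional DC-like and -0.12 in monocyte-like cells. NK-like cells had 176 CPM in Papain WT and 127 in Papain KO. Gamma-delta T-like cells went the other way, from 3 and 5 UMIs. In alveolar macrophage-like cells the ratio was 0.12 (0.09 to 0.15). B-like cells carried Cd69 at 227 to 286 CPM, but Icos, Cd28, Cd5 and Cd6 at no more than 3.85 CPM. NK-like cells had Cd28 at 99.9 to 132 CPM and no Cd40lg UMI.

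**Figure D5:**
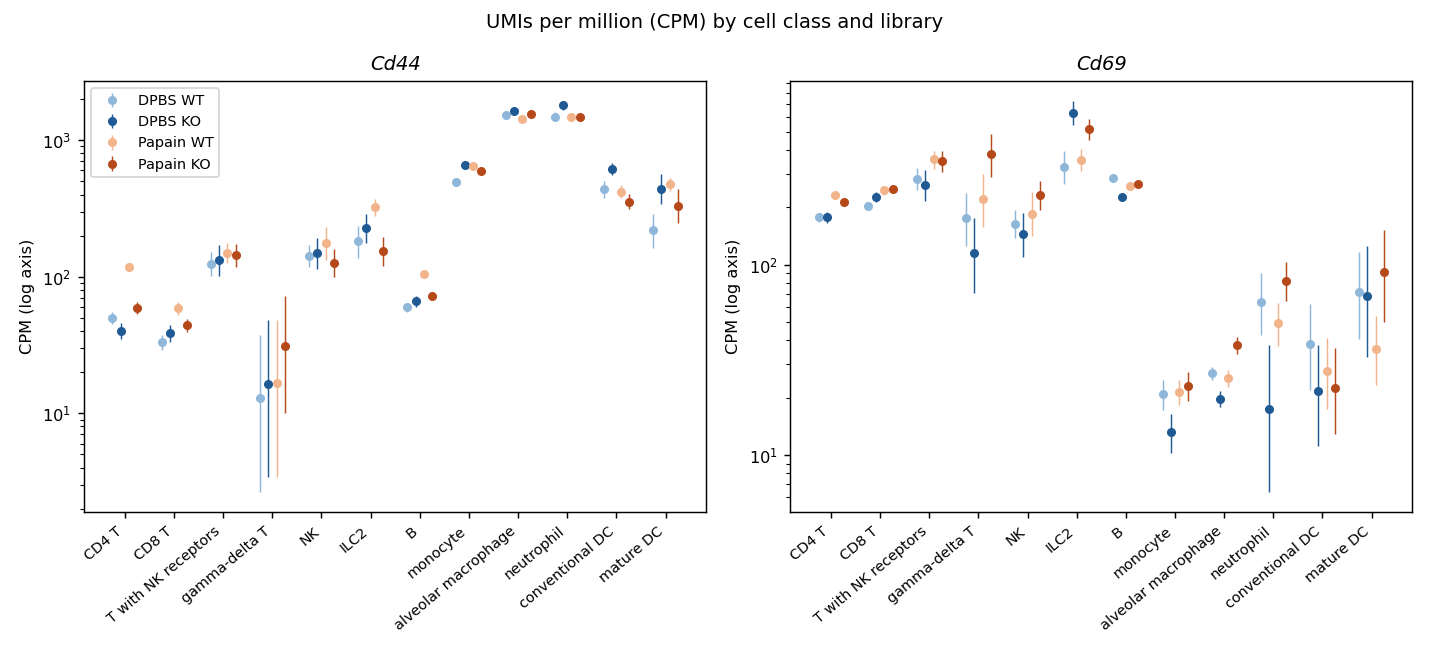
Levels (CPM, log axis) of Cd44 and Cd69 by cell class, 1 point for each library, with exact 95% Poisson intervals for counting error only. Cd44 is highest in alveolar macrophage-like and neutrophil-like cells (1431 to 1801 CPM), and Cd69 is highest in lymphocyte classes, with ILC2-like cells at 326 to 630 CPM.

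The ligands were read in the cells that present them. Icosl, the ligand of ICOS, stood at 90.0, 59.4, 56.1 and 62.5 CPM in B-like cells, highest in DPBS WT. In conventional DC-like cells it was at 98.0, 88.4, 56.4 and 63.4 CPM, with intervals that all overlapped. Those values came from 41 to 49 UMIs and 23 to 46 cells in a library. Mature DC-like cells had it at 89.4, 89.2, 72.4 and 182 CPM, highest in Papain KO. Cd86 was at 496, 528, 252 and 274 CPM in mature DC-like cells and Cd80 at 250, 398, 255 and 195 CPM. Cd40, the partner of CD40 ligand, was at 254 to 483 CPM in those cells and at 53.8 to 76.2 CPM in B-like cells. The mature DC-like class held 10 to 50 cells in a library, so 1 or a few cells could move its values. All conventional DC-like cells came from a cluster that scored for cDC1, with Xcr1 and Clec9a among its top genes. A cluster that scored best for cDC2, another type of conventional DC, was left unnamed.

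Among 10 other costimulatory and inhibitory receptors of T cells, 4 were lower by 1.5-fold or more in Papain KO than in Papain WT CD4 T-like cells and none was higher, with a median log2 ratio of -0.53. They were Ctla4 (126 against 269 CPM, log2 ratio -1.10), Pdcd1 (13.8 against 57.8 CPM, -2.07), Tnfrsf4 (115 against 301 CPM, -1.39) and Tnfrsf9 (27.1 against 70.6 CPM, -1.38). CTLA-4 competes with CD28 for its ligands, PD-1 is inhibitory, and the other 2 are OX40 and 4-1BB, costimulatory receptors of the TNF receptor family. For all genes the share lower by that much was 8.5%. In WT, 6 of the 10 were higher by 1.5-fold or more after papain than after DPBS, against 10.6% of all genes, with a median of 0.93. In KO 4 were, against 7.09% of all genes, with a median of 0.44. With DPBS, Tnfrsf4 was higher in KO by 0.76 on the log2 scale, Cd226 and Pdcd1 were lower, and Ctla4 was at -0.41. Ctla4, Tnfrsf4, Tnfrsf18 and Il2ra also served as markers of the regulatory T-like subset, whose share was higher in Papain WT.

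Of 8 activation genes, 3 were lower past 1.5-fold in Papain KO, against 8.5% of all genes. They were Il2ra, the interleukin-2 receptor alpha chain, at -1.64, Irf4 at -0.61 and Nr4a3, a receptor-induced transcription factor, at -0.63 on the log2 scale. After papain, 5 of the 8 were higher by that much than with DPBS in WT, against 10.6% of all genes. In KO 4 were, against 7.09%. With DPBS Nr4a3 was higher in KO, at 66.6 against 33.6 CPM. Mki67, which also served as a marker of dividing cells, was lower, at 31.1 against 72.5 CPM (log2 ratio -1.22). Of 13 signalling partners of these receptors, 1 was lower past 1.5-fold in Papain KO, Malt1 at -0.67, against 8.5% of all genes. The 3 known repressors of Icos mRNA were read as transcripts only, and their part in the Icos level was not tested. Zc3h12a (Regnase-1) was at 33.5, 54.4, 65.9 and 42.9 CPM, Rc3h1 (Roquin-1) at 35.9, 38.6, 51.3 and 38.5 CPM and Rc3h2 at 30.0, 30.9, 41.0 and 31.5 CPM. All 3 had their highest level in Papain WT, as Icos had.

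Genes with the most similar pattern to each member were ranked by Pearson's r of log2(CPM + 1) over 28 sums of T subset and library, among 11021 genes, as a description. The sums share libraries and depth. Cd4, Ccr2 and Tnfrsf4 also served to call or name the T subsets, so that their matches were partly fixed by the naming. Icos was most like Tiam1 (r = 0.96), Tnfrsf4 (0.96) and Capg (0.95), and Cd44 was most like Atp2b1 (0.93), Ccr2 (0.92) and Ttc39b (0.91). Cd5 and Cd6 were among each other's 3 nearest genes, with r = 0.93. Cd5 also ran with Ass1 (0.94) and Cdipt (0.91), and Cd6 with Bbip1 (0.88) and Fam120a (0.87). Cd28 was nearest to Ubash3a (0.91), Chst2 (0.89) and Tnfsf11 (0.87), and Cd40lg to Cd4 (0.91), L1cam (0.85) and Tnfsf11 (0.85). Cd69 had the weakest neighbours, Dennd4a (0.84), Dnaja4 (0.79) and Fosl2 (0.79), and its r with the other 6 members ran from -0.33 to 0.25.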

How the data were processed

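Live CD45.2+ lung cells were captured with a 10x Genomics 3′ kit. Per the labels and file headers, the authors aligned reads to mm10 and counted UMIs with Cell Ranger 3.1.0, and deposited raw UMI counts per gene and cell. From these counts, cells with over 200 genes and under 15% mitochondrial UMIs were kept, and 267 to 557 doublets per library were removed. Cells were clustered in R 4.3.3 (Seurat 5.3.0; 2000 variable genes without the members, 30 dimensions, Louvain resolution 0.8). Sums were made in Python 3.11.15 (numpy 2.4.6, scipy 1.17.1), and TMM factors with edgeR 4.0.16. Pairs of libraries shared 7 to 16 barcodes.

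Each group was 1 library, so no test was made. Intervals are exact 95% Poisson intervals for levels, conditional binomial for ratios and Clopper-Pearson for shares. Only the ratios and their intervals were tested on simulated counts. Those were drawn from a Poisson distribution, which the intervals assume, and clustering and naming were not simulated. All 7 members are named, with the 3 genes most like each and genes of preset lists. The members and lists were chosen with earlier results of these data known.

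The rules that named clusters, the T sub-clustering and the cell-by-cell CD4 and CD8 calls were set after the clusters were seen. The rule that leaves cells of a mixed memory sub-cluster without Cd4 and Cd8 UMIs out of CD4 T-like cells was set after their low Cd5 and Cd6 were seen. It enlarged the papain KO/WT ratio of Icos. That sub-cluster and 1 listed gene are not reported here.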

Additional observations from a re-analysis of the deposited data

Results flagged for a closer look

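Some members had log2 ratios whose counting intervals excluded 0 on opposite sides under the 2 treatments or in the 2 genotypes, with at least 50 UMIs in each pair of libraries. None of these differences was tested, because each group was 1 library.

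Icos did so in several classes. Its KO/WT ratio with DPBS and with papain was 0.46 and -0.69 in CD4 T-like cells, 0.63 and -0.34 in naive CD4 T-like cells, and 0.96 and -0.72 in dividing CD4 T-like cells. It was 0.55 and -0.20 in CD8 T-like cells and 0.98 and -0.70 in ILC2-like cells. Its papain/DPBS ratio in WT and in KO was 0.34 and -0.64 in naive CD4 T-like cells, 1.10 and -0.58 in dividing CD4 T-like cells and 0.93 and -0.76 in ILC2-like cells. The ILC2-like cells of Papain WT also held the most T cell transcripts, 33 UMIs of Cd3e and 33 of Cd28 against 4 and 2 in DPBS WT. Without the ILC2-like cells that had a Cd3 UMI the last pair of ratios was 1.46 and -1.08, and the KO/WT pair was 1.47 and -1.07.

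In T cells, the KO/WT ratio of Cd28 in CD8 T-like cells was 0.23 with DPBS and -0.12 with papain, and its papain/DPBS ratio was 0.18 in WT and -0.16 in KO. The KO/WT ratio of Cd5 in naive CD4 T-like cells was -0.29 and 0.19, and that of Cd6 in memory CD4 T-like cells was -0.61 and 0.56. In DPBS KO the memory CD4 T-like subset held only 29 cells, and its NK markers summed to 408 CPM.

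Classes in which CD4 cre should be silent showed opposite signs too. The KO/WT ratio of Cd44 was 0.43 and -0.12 in monocyte-like cells, 0.49 and -0.25 in conventional DC-like cells (cDC1 only) and 1.00 and -0.51 in mature DC-like cells. The papain/DPBS ratio of Cd44 in WT and in KO was 0.40 and -0.14 in monocyte-like cells and 0.83 and -0.56 in ILC2-like cells, or 0.89 and -0.62 (-1.43 to 0.19) there without cells that had a Cd3 UMI. Cd69 had a KO/WT ratio of -0.44 and 0.58 in alveolar macrophage-like cells, and a papain/DPBS ratio of -0.14 in WT and 0.22 in KO in B-like cells. Effects of 1 library and of the groups cannot be told apart here.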

How the results depend on the processing

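The CD4 T-like ratios were recomputed under 11 alternatives, 1 of them (the cells of a mixed memory sub-cluster without Cd4 and Cd8 UMIs included) added after seeing the data. After papain, the KO/WT log2 ratio of Cd44 ran from -1.12 to -0.57 and that of Icos from -0.72 to -0.34, negative under all 11. The DPBS Icos ratio ran from 0.17 to 0.62, positive under all 11, and the papain/DPBS ratio of Icos in KO from -0.27 to 0.52. At equal subset shares the papain KO/WT ratio was -0.57 for Cd44, -0.34 for Icos, 0.019 for Cd28 and 0.040 for Cd5, the last 2 with the opposite sign. The DPBS KO/WT ratio of Cd44 was then 0.057, also reversed, and the papain/DPBS ratio of Cd28 in WT was -0.0038. With CD4 T cells gated on transcripts alone, the papain KO/WT ratio of Cd69 was 0.00020. With those added cells the papain Icos ratio was -0.58. The count of members lower past 1.5-fold in Papain KO, 2 as reported, was 1 with those cells and 0 at equal shares. The count higher in DPBS KO went from 0 to 1 at equal shares, and that higher after papain in KO from 0 to 1 with the transcript gate. Apart from equal shares, the cause of these shifts was not tested. In ILC2-like cells the papain KO/WT ratio of Cd44 moved from -1.06 to -1.60 without cells that had a Cd3 UMI, an alternative added after seeing the data. With 10 to 50 mature DC-like cells per library, small differences in that class were not detectable at this depth. No paired analysis was possible because each group is 1 library and no test was made.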
